A study of Mus musculus with 6 samples.

Results

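The cytosolic ribosomal protein genes were followed across the cell classes and the diets of a single-cell RNA data set from mouse aorta. The family was taken by name: every gene symbol that begins with Rps or Rpl and a number, plus Rplp0, Rplp1, Rplp2 and Rpsa, with the Rps6k kinase genes left out. This gave 103 of the 27998 genes in the files. They are 31 standard proteins of the 40S subunit, 46 standard proteins of the 60S subunit, 9 paralogs, 16 genes with the name of a pseudogene and 1 binding partner, Rps19bp1. Fau, which encodes a ribosomal protein fused to a ubiquitin-like protein, and Rack1 (listed under its older symbol Gnb2l1) carry other names and were not among them. The animals were C57B/6J mice aged 18 weeks, 3 samples from mice on a high-fat diet and 3 from mice on a control diet. Aortas were digested with collagenase and DNase, red cells were lysed, and single cells were captured in droplets, where a unique molecular identifier (UMI) marks each transcript molecule so that copies made by PCR are not counted again. No transgene or deletion is given for either diet. Whether the samples came from separate animals is not stated, so a p-value here reflects the spread of these samples, which may be technical.

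A ribosome is built from a small (40S) and a large (60S) subunit, each made of ribosomal RNA and of proteins that are needed in about equal numbers. The mRNAs of these proteins are among the most abundant in most cells, and many of them begin with a C followed by a run of pyrimidines at the transcription start. That run, the 5′ terminal oligopyrimidine tract, lets growth signals acting through mTORC1 and LARP1 set the translation and stability of the whole family. Small resting lymphocytes hold a large share of their mRNA in this family, while erythroid cells lose theirs late in maturation. A few proteins have a paralog that can replace them in certain tissues, such as RPL3L in striated muscle.

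Pyrimidine runs near the annotated starts are shown for members on which the results below turn. Of the 103 genes, 66 had an entry in a RefSeq table of promoters (build GRCm38.p6), with 78 starts in all. The windows run from 15 bases before to 15 bases after the annotated start, so base 16 is the annotated start, and capitals mark the longest run of a C followed by at least 4 pyrimidines, wherever it lies in the window. Rps27, its near-identical copy Rps27rt and its paralog Rps27l are shown because they differ between classes, Rpl22 and Rpl22l1 for the same reason, Rpl39 because it lies low in the diet comparison, and Rpl39l and Rpl3l because they are rare paralogs.
Rps27 (chr3:90213634-90213663, minus strand): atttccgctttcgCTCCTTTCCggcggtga
Rps27rt (chr9:114982725-114982754, minus strand): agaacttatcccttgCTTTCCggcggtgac
Rps27l (chr9:66946071-66946100, plus strand): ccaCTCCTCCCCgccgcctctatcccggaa
Rpl22 (chr4:152324421-152324450, plus strand): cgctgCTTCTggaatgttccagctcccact
Rpl22l1 (chr3:28805493-28805522, plus strand): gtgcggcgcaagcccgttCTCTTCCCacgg
Rpl39 (chrX:37085208-37085237, minus strand): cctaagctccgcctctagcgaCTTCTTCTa
Rpl39l (chr16:10170213-10170242, plus strand): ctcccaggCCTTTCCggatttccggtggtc
Rpl3l (chr17:24727811-24727840, plus strand): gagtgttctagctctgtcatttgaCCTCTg
The run of Rps27rt begins at the start itself and that of Rps27 spans it. The runs of Rps27l, Rpl22 and Rpl39l lie wholly upstream of the annotated start, and those of Rpl22l1, Rpl39 and Rpl3l begin downstream of it. Rps27l, Rpl22 and Rpl3l each have another listed start, not printed, whose window holds no such run. For Rpl22 that window (chr4:152325711-152325740) lies closer to the gene's annotated beginning at 152325742 than the printed one. The windows of Rps27rt and Rps27 share a stretch of 14 bases, ctttccggcggtga. The longest stretch shared by Rps27l and Rps27 is 5 bases. A run of a C with at least 4 pyrimidines lay on the gene's strand in 58.2% of the 67 starts of standard members and in 36.4% of all 32851 starts in the table. On the opposite strand it lay in 28.4% of the standard members' starts and in 40.8% of all starts. For runs of at least 8 bases on the gene's strand the shares were 37.3% and 9.26%. Within 300 bases and on either strand, CCGGAA, the core bound by ETS factors, stood in 49.3% of the standard members' promoters and in 14.9% of all. ATGGCG, the core bound by YY1, stood in 28.4% and 8.93%, and TATAAA in 8.96% and 13.6%. These are matches of letters and do not show binding.

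The 6 samples held 62838 cells and 41388034 to 83886418 UMIs each, with medians of 3856 to 5955 UMIs per cell. Filters on genes, mitochondrial UMIs and doublets kept 58019 cells. A gate on marker genes (at least 3 markers of a class with a UMI and at least 2 more than of any other class) named 45437 of them (78.3%), and each class is called by the markers it carries, such as endothelial-like. The cells that passed no gate made up 15.3% to 41.9% of a sample. Endothelial-, smooth muscle-, fibroblast- and macrophage-like cells numbered at least 20 in every sample and were tested. B cell-like and T cell-like cells numbered under 20 in control 1 and entered only comparisons of the other 5 samples. Of 60528 distinct barcodes, 2051 occurred in 2 or more samples. The barcodes of each sample carry 2 suffixes, which are read here as 2 droplet wells, the first and the second. The suffix is the only source for the wells used below. Control 1 stood apart in its RNA, measured in plain CPM (a gene's share of the summed UMIs on the CPM scale, with no further normalisation). The 8 skeletal muscle markers summed to 1873 to 2857 in its 4 tested classes, against 18.3 to 631 in those of the other samples.

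Ribosomal protein genes supplied 60510445 UMIs, 20.2% of all UMIs in the kept cells. The 46 standard 60S proteins held 55.2% of the family's UMIs and the 31 standard 40S proteins 42.5%. The paralogs together held 1.29% and the genes with pseudogene names 0.993%. Rps29, a small zinc-binding protein of the 40S head, was the most abundant at 5894 plain CPM, followed by Rpl41 at 5641, Rpl37a at 4846 and Rps27 at 4776. The 3′ tags count transcripts and are not divided by length. Every standard member was detected. The lowest of them were Rpl7a at 962, Rpl22 at 1015 and Rpl5 at 1034 plain CPM. The counting can split reads between near copies: when the last 400 bases of each gene were cut into reads of 98 bases, 72 of the 77 standard members shared some with another gene and 7 shared over 50%.

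Fibroblast-like cells held the largest share of the 4 tested classes in every sample, and smooth muscle-like cells less than the mean of the others in every sample. Fibroblast-like cells held 20.2% ± 2.68 of their UMIs in the family (SD, n = 6 samples), endothelial-like cells 17.9% ± 2.59, macrophage-like cells 16.9% ± 2.57 and smooth muscle-like cells 15.8% ± 1.81. Set against the mean of the other 3 classes in the same sample, fibroblast-like cells were 3.35 points higher (± 0.975 SD) in 6 of 6 samples and smooth muscle-like cells were lower in 6 of 6 (a difference of -2.52 points ± 1.32 SD). Both had the smallest p that exact sign flips over 6 samples allow (0.03125, two-sided), and after adjustment over the 4 classes neither passed 0.05 (adjusted p = 0.0625). Macrophage-like cells (-1.02 points, higher in 1 of 6 samples, exact adjusted p = 0.125) and endothelial-like cells (0.197 points, higher in 4 of 6, exact adjusted p = 0.5) lay between them. When the share was averaged over cells or read from the second well alone, fibroblast-, smooth muscle- and macrophage-like cells each reached an exact adjusted p of 0.0417. The unadjusted p of fibroblast- and smooth muscle-like cells was already the smallest possible. Their adjusted p fell only because macrophage-like cells reached that limit as well. Read from the first well alone, macrophage-like cells turned to 0.269 points (exact adjusted p = 0.8125), and fibroblast- and smooth muscle-like cells stayed at an exact adjusted p of 0.0625. Averaged over cells, endothelial-like cells turned to -0.0421 points. The share also moved with depth within a class. In all 6 samples fibroblast-like and macrophage-like cells with 1000 to under 2000 UMIs had a lower share than those with 4000 to under 8000, with differences of -4.85 to -2.03 points in fibroblast-like and -5.83 to -4.82 points in macrophage-like cells.

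**Figure D1:**
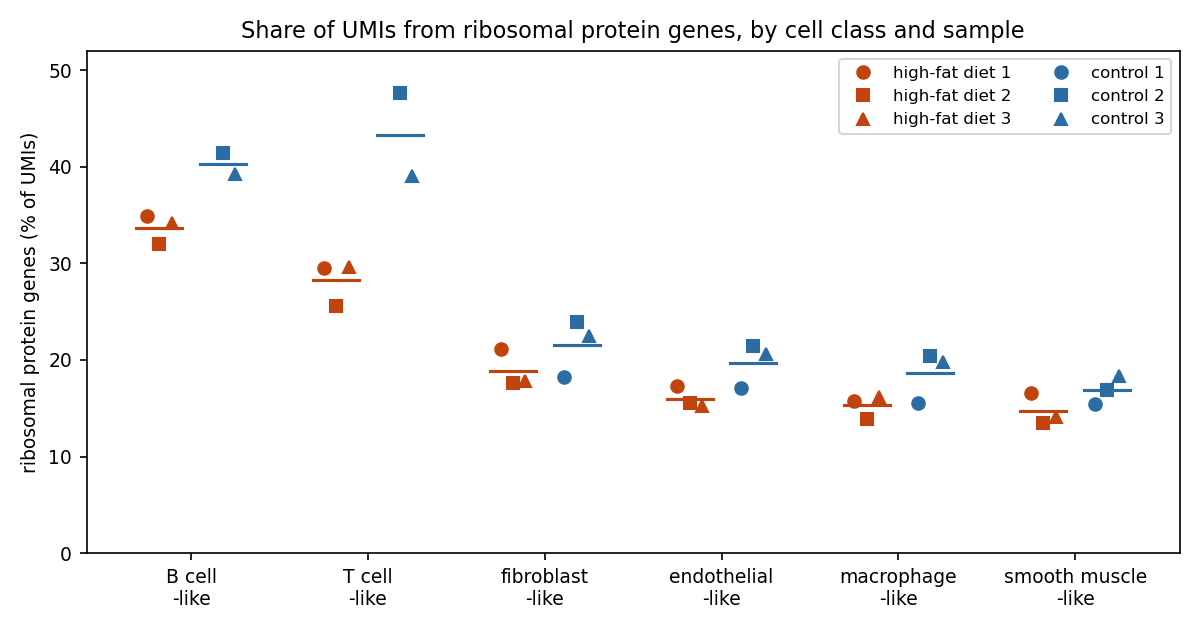
Share of each sample's UMIs that came from the 103 ribosomal protein genes, in percent, for 6 cell classes with at least 20 cells in the sample. Points are samples, bars are means of a diet. B cell-like and T cell-like cells lie between 25.6% and 47.6%, above the 4 other classes.

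Lymphocytes held the most. B cell-like cells had 36.3% ± 3.87 of their UMIs in the family and T cell-like cells 34.3% ± 8.94 (SD, n = 5 samples each, control 1 left out). In B cell-like cells the share was 34.9%, 32.01% and 34.1% in high-fat diet 1, 2 and 3, against 41.4% and 39.2% in control 2 and 3. In T cell-like cells it was 29.5%, 25.6% and 29.6% in the high-fat diet samples, against 47.6% and 39.0% in control 2 and 3. All 3 high-fat diet samples lay below both controls in each class. These 2 comparisons were chosen after the values had been seen and rest on as few as 27 B cell-like and 39 T cell-like cells in high-fat diet 2, so no test is given. The T cell-like cells were not the same mixture in each sample. Lef1 and Ccr7, genes of naive T cells, had 41.0 to 68.3 and 19.4 to 41.0 plain CPM in the high-fat diet samples, against 152 to 222 and 98.3 to 125 plain CPM in the controls. In high-fat diet 1, 2 and 3 these values rest on 11, 5 and 8 UMIs of Lef1 and 4, 2 and 8 of Ccr7. Ccr7 is also a dendritic cell marker of the gate, so it counts against a T cell call. Cxcr6, a gene of tissue-resident T cells, had 490, 939 and 518 plain CPM in high-fat diet 1, 2 and 3, against 130 and 350 in control 2 and 3. The part of these subtypes in the T cell difference was not tested. At the other end, erythroid-like cells held 3.06% to 4.75% and Schwann-like cells 9.87% to 12.0%.

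With B cell-like and T cell-like cells added, an alternative chosen after the data had been seen, nearly the whole family was higher in lymphocytes. In B cell-like cells edgeR's quasi-likelihood test called 94 of 97 tested members higher than the mean of the other 5 classes and 2 lower, where 24.9% of all genes were called higher. In T cell-like cells 93 were called higher and 2 lower, where 18.2% of all genes were called higher. All 77 standard members were higher in both. Their median log2 difference was 1.00 in B cell-like and 0.69 in T cell-like cells, where the median of all genes was -0.21 and -0.26. Rps27 had the largest difference of the standard members in B cell-like cells (1.51 ± 0.09 SE, edgeR adjusted p = 8.42e-15), higher in 5 of 5 samples. Rpl12, a protein at the base of the stalk, had the largest in T cell-like cells (1.42). Measured against a mean that includes lymphocytes, endothelial-, smooth muscle- and macrophage-like cells lay low. Of 97 members, 94 were called lower in endothelial-like (24.6% of all genes), 85 in smooth muscle-like (30.7%) and 78 in macrophage-like cells (30%). Last, in fibroblast-like cells 29 were called lower, near the share of all genes (27.1%), and 64 were not called. In the same order 0, 1, 4 and 4 were called higher (30.1%, 39.9%, 28.3% and 37.5% of all genes).

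Among the 4 vessel classes the family did not move as a block. Of 98 members tested with edgeR (sample as a block, a class against the mean of the other 3), fibroblast-like cells had 77 called higher and none lower, where 29.2% of all genes were called higher and 33.2% lower. Macrophage-like cells had 43 higher and 16 lower, where the shares of all genes were 33.3% and 36.8%. The second well alone gave macrophage-like cells 17 higher and 25 lower, with a median of -0.02, against 43 and 12 in the first. Of all genes, 3471 of 11478 were called higher and 3990 lower in the second well, against 3277 of 11816 and 3857 in the first. Endothelial-like cells had 2 higher and 52 lower (26.9% and 30.1% of all genes). Smooth muscle-like cells had 7 higher and 54 lower (33.3% and 35.4% of all genes), and 34 lower in the second well alone (3606 of all 11478 genes). The median log2 difference of the members was 0.24 in fibroblast-like, 0.08 in macrophage-like, -0.15 in endothelial-like and -0.15 in smooth muscle-like cells, where that of all genes was -0.05, -0.05, -0.04 and -0.03. These signs need not match those of the share, which divides by all UMIs, while this fit scales each sum with TMM factors. In share, macrophage-like cells lay lower (-1.02 points) and endothelial-like cells slightly higher (0.197 points) than the mean of the other 3. Why the measures differ was not tested. In fibroblast-like cells 24 of 31 standard 40S and 38 of 46 standard 60S proteins were called higher. In smooth muscle-like cells 24 of 31 and 23 of 46 were called lower, with medians of -0.20 and -0.13. The difference between the subunits was not tested.

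**Figure D2:**
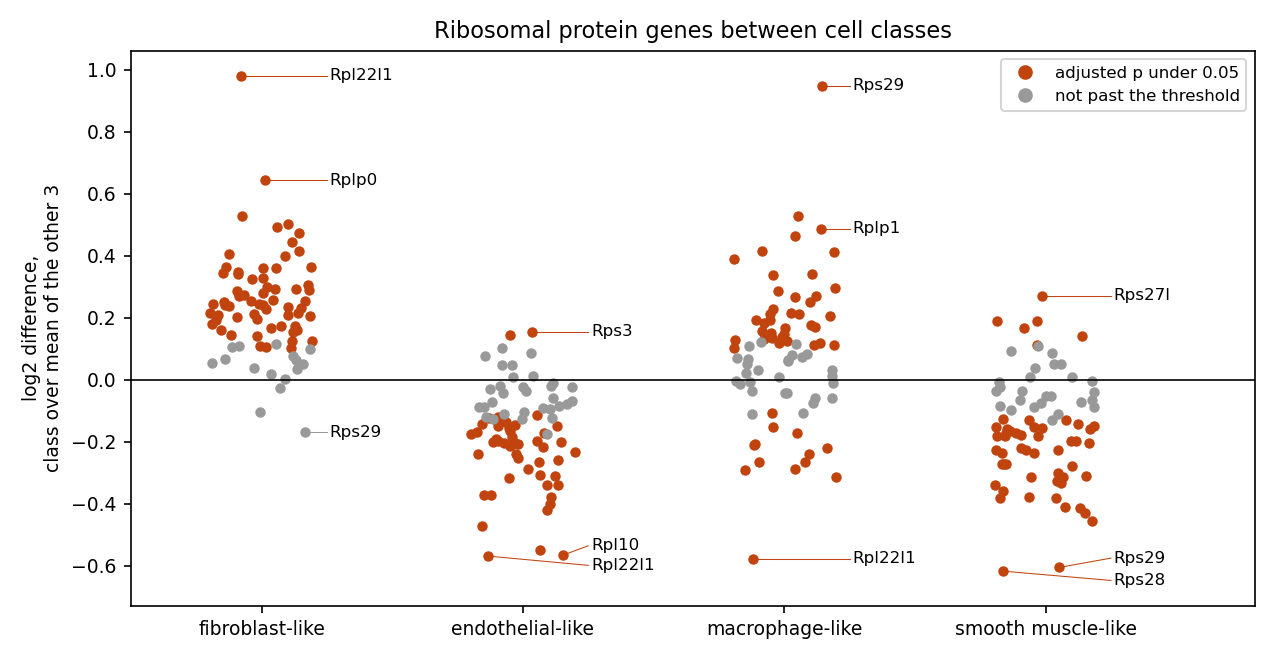
Log2 difference of 77 standard ribosomal protein genes and of the paralogs Rpl22l1 and Rps27l between each class and the mean of the other 3, from the edgeR fit over 6 samples. Each point is a gene, coloured by adjusted p. Most points lie above 0 in fibroblast-like cells and below 0 in endothelial-like and smooth muscle-like cells, and Rps29 stands alone at 0.95 in macrophage-like cells.

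The proteins of the stalk, which recruits elongation factors to the 60S subunit, split. Rplp0, the stalk's anchor, was the standard member with the largest positive difference in fibroblast-like cells (0.64 ± 0.05 SE, edgeR adjusted p = 1.05e-09, 6 of 6 samples). It was lower in endothelial-like cells (-0.29, edgeR adjusted p = 0.000118) and macrophage-like cells (-0.27, edgeR adjusted p = 0.000187). Rplp1, which binds Rplp0 as a dimer with Rplp2, was instead highest in macrophage-like cells (0.49 ± 0.05 SE, edgeR adjusted p = 1.06e-07, 6 of 6 samples), and so was Rplp2 (0.27, edgeR adjusted p = 7.78e-05). In fibroblast-like cells Rplp1 was higher by 0.20 (edgeR adjusted p = 0.00451), while Rplp2 at 0.07 did not pass.

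Rps29 was the standard member with the largest difference in macrophage-like cells. It had 7260, 5857 and 8377 plain CPM in macrophage-like cells of the high-fat diet samples and 6826, 11753 and 12060 in those of the controls. In smooth muscle-like cells it had 4445, 3414 and 3734 in the high-fat diet samples and 3845, 4117 and 5413 in the controls. The macrophage-like value was the higher one in every sample (log2 difference to the mean of the other 3 classes 0.95 ± 0.07 SE, edgeR adjusted p = 5.04e-10). Rps28 (0.46, edgeR adjusted p = 2.24e-05) was also higher in macrophage-like cells. Both genes stood at the low end of smooth muscle-like cells, with Rps28 at -0.62 (edgeR adjusted p = 1.27e-06) and Rps29 at -0.61 (edgeR adjusted p = 1.3e-06). Rpl11, which with Rpl5 carries the 5S ribosomal RNA and can bind the p53 regulator MDM2, followed them among the standard members there (-0.46, edgeR adjusted p = 1.9e-08). Its partner Rpl5 did not pass in smooth muscle-like cells (0.05, edgeR adjusted p = 0.364).

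The lowest standard member of endothelial-like cells was Rpl10, a late-joining 60S protein near the catalytic centre (-0.57 ± 0.05 SE, edgeR adjusted p = 2.85e-09, lower in 6 of 6 samples). Rpsa, a 40S protein also known as the laminin receptor, was lower there (-0.47, edgeR adjusted p = 7.21e-09) and higher in fibroblast-like cells (0.49, edgeR adjusted p = 1.55e-09, 6 of 6 samples). The 2 members called higher in endothelial-like cells were Rps3 (0.15, edgeR adjusted p = 0.0072), a 40S protein at the mRNA entry that also acts in DNA repair, and Rps27 (0.14, edgeR adjusted p = 0.0382), and with a gate of 4 markers 0 were called higher. The 3 highest members in smooth muscle-like cells were Rps27l (0.27), Rps3a1 (0.19, edgeR adjusted p = 0.0012) and Rps2 (0.19, edgeR adjusted p = 0.0038), the last at the mRNA entry.

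Rps27 and its paralog Rps27l, a p53 target in mouse and human cells, moved in opposite directions between classes. Their 3′ ends share no read-length window with each other, so the counting can tell the pair apart. Yet 27.8% of the 3′ windows of Rps27 are shared with some other gene. Its count, and with it the percentages below, can be affected. Rps27l made up 13.5% of the UMIs of the pair in smooth muscle-like cells (median, range 11.9% to 15.7% over 6 samples) and 11.5% in macrophage-like cells (10.0% to 13.1%). It made up 9.81% in fibroblast-like (7.25% to 11.8%) and 8.86% in endothelial-like cells (7.09% to 9.88%), and 3.42% in T cell-like (1.24% to 5.0%) and 1.55% in B cell-like cells (0.921% to 2.79%), each over 5 samples. The ranges of smooth muscle-like and endothelial-like cells do not overlap, nor do those of any of the 4 vessel classes with those of the lymphocytes. Rps27l was higher in smooth muscle-like cells by 0.27 (± 0.07 SE, edgeR adjusted p = 0.00114, 6 of 6 samples) and lower in endothelial-like cells (-0.31, edgeR adjusted p = 0.000703), where Rps27 was -0.27 (edgeR adjusted p = 0.000393) and 0.14. With lymphocytes added, Rps27l was 1 of 2 members called lower in B cell-like cells (-0.73, edgeR adjusted p = 6.57e-06), beside Rpl39l, and 1 of 2 called lower in T cell-like cells (-0.61, edgeR adjusted p = 0.000213), beside Rpl7l1.

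**Figure D3:**
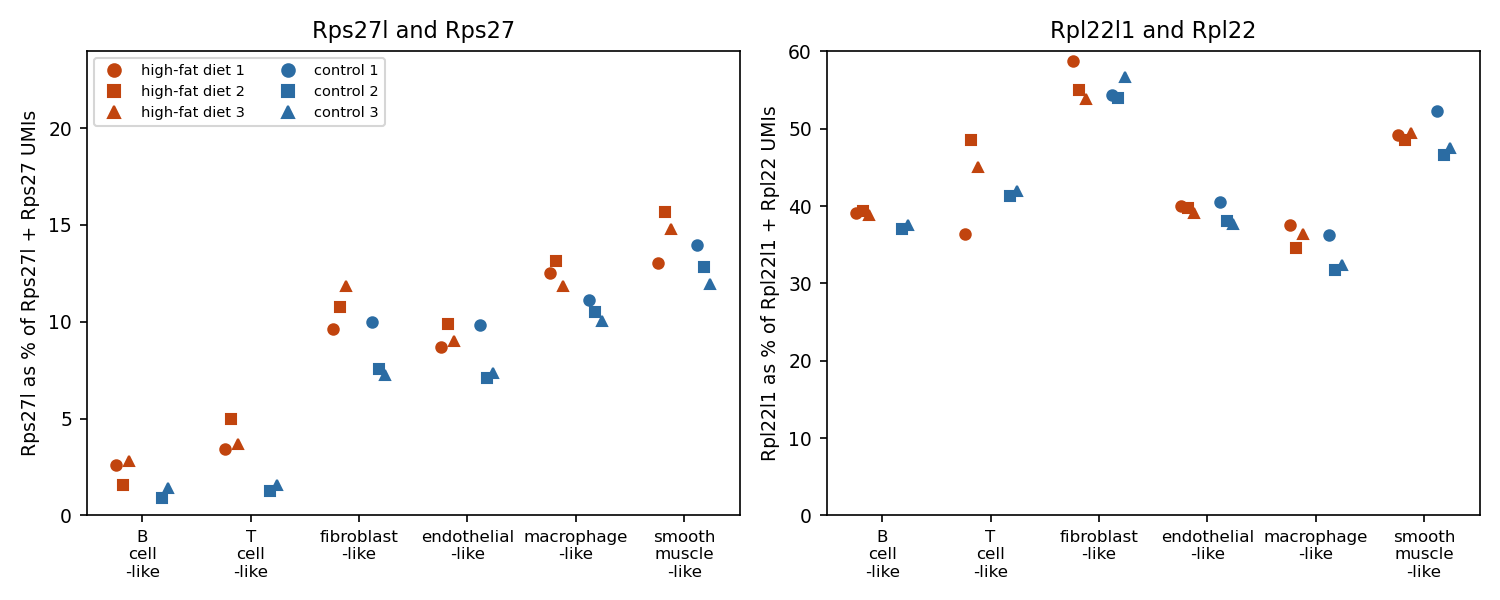
Rps27l as a percent of Rps27l and Rps27 UMIs (left) and Rpl22l1 as a percent of Rpl22l1 and Rpl22 UMIs (right), by cell class and sample. Each point is a sample with at least 20 cells of the class. Rps27l stays at or below 5.0% in the lymphocytes, and Rpl22l1 lies above 53% in every fibroblast-like sum.

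Rpl22l1, the paralog of the 60S protein Rpl22, was the member with the largest difference in fibroblast-like cells. It had 1404, 1008 and 1016 plain CPM in fibroblast-like cells of the high-fat diet samples and 1076, 1455 and 1408 in those of the controls. In macrophage-like cells it had 487, 386 and 496 in the high-fat diet samples and 453, 520 and 522 in the controls. The lowest fibroblast-like sample lay above the highest macrophage-like one (log2 difference in fibroblast-like cells 0.98 ± 0.06 SE, edgeR adjusted p = 7.85e-12). It was lower in macrophage-like cells (-0.58, edgeR adjusted p = 4.82e-08) and endothelial-like cells (-0.57, edgeR adjusted p = 1e-07). Rpl22 differed less, at 0.13 in fibroblast-like (edgeR adjusted p = 0.0318), 0.20 in macrophage-like (edgeR adjusted p = 0.00103), -0.15 in endothelial-like (edgeR adjusted p = 0.0146) and -0.18 in smooth muscle-like cells (edgeR adjusted p = 0.00354). Rpl22l1 therefore made up 54.7% of the pair's UMIs in fibroblast-like cells (median, range 53.8% to 58.7%), 48.9% in smooth muscle-like (46.6% to 52.3%), 39.4% in endothelial-like (37.6% to 40.5%) and 35.4% in macrophage-like cells (31.7% to 37.6%). The ranges of the 4 classes do not overlap, and those of endothelial-like and macrophage-like cells are separated by the least. Of the 3′ windows of Rpl22l1, 22.2% are shared with another gene.

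Rpl3l, the striated muscle paralog of the 60S protein Rpl3, was highest in skeletal muscle-like cells. In skeletal muscle-like cells it had 319 plain CPM in high-fat diet 2 (235 UMIs in 154 cells), 241 in control 1 (60 UMIs in 51 cells) and 608 in control 2 (71 UMIs in 24 cells). The other samples had under 20 such cells each. Rpl3l was 16.8% to 49.3% of the Rpl3l and Rpl3 UMIs of these 3 sums, and Rpl3 itself averaged 906 ± 285 plain CPM (SD, n = 3). In cardiomyocyte-like cells Rpl3l had 27.5 plain CPM in high-fat diet 1, 39.8 in control 2 and 0 in control 3, which held 31 such cells. In the 4 tested classes it stayed between 0 and 2.0 plain CPM, except in control 1, where it reached 11.001 in endothelial-like, 13.7 in macrophage-like, 7.31 in smooth muscle-like and 5.18 in fibroblast-like cells. In those classes of control 1 the 8 skeletal muscle markers were also raised, at 2120, 2857, 2039 and 1873 plain CPM, against 55399 in its skeletal muscle-like cells. Among the 4 tested classes edgeR called Rpl3l higher in macrophage-like cells (1.09, edgeR adjusted p = 0.02), a call that rests on 36 UMIs. No test was made of skeletal muscle-like cells, which reached 20 cells in 3 samples.

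**Figure D4:**
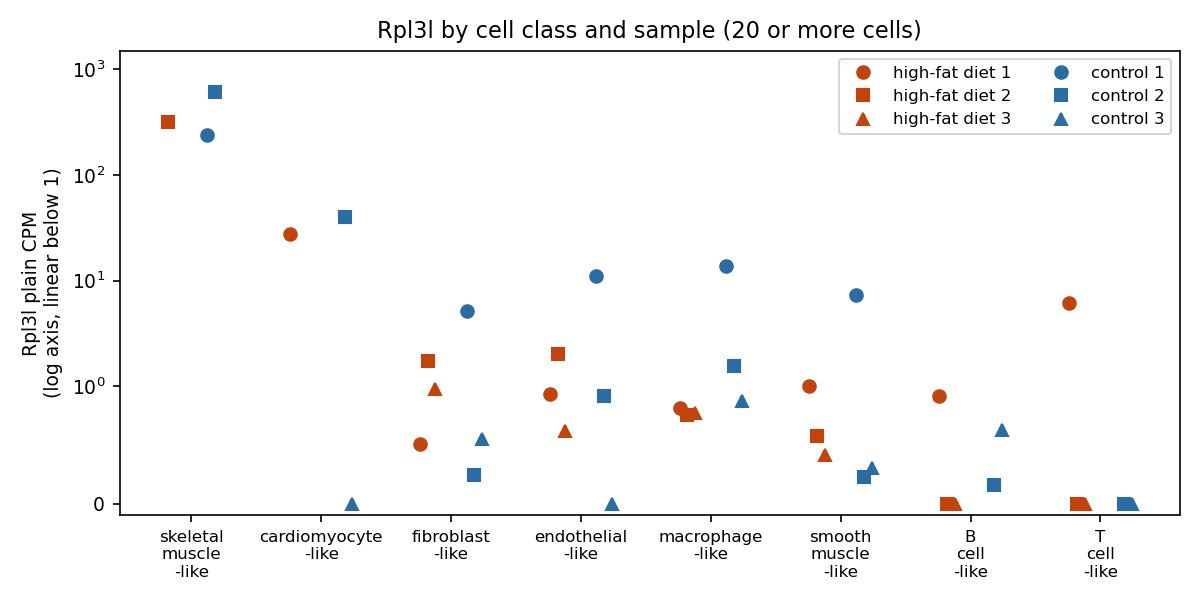
Rpl3l in plain CPM by cell class and sample, on a log axis that is linear below 1. Each point is a sample with at least 20 cells of the class. Skeletal muscle-like cells lie between 241 and 608, the control 1 points of the 4 vessel classes lie above those of the other samples, and the high point of T cell-like cells is a single UMI.

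The other paralogs gave smaller contrasts. Rpl10l, a testis paralog of Rpl10, had no UMI among all kept cells, where 3 counts would be 0.01 plain CPM. Rpl39l, the testis paralog of the exit-tunnel protein Rpl39, had 560 UMIs in all (1.87 plain CPM). It had 6.14 plain CPM in T cell-like cells from 21 UMIs (95% Poisson interval 3.8 to 9.39) and 0.252 in B cell-like cells from 4 UMIs (0.0688 to 0.646). Intervals and limits of this kind cover counting error only. Rpl36al was 25.2% of the pair with Rpl36a in endothelial-like cells (22.6% to 27.3%) and 34.0% in macrophage-like cells (31.7% to 35.0%), ranges that do not overlap. It was higher in macrophage-like cells (0.38, edgeR adjusted p = 3.87e-06) and lower in endothelial-like cells (-0.54, edgeR adjusted p = 1.23e-07). Yet 72.8% of its 3′ windows are shared, so its reads can be confused with those of another gene. Rpl7l1, a nucleolar paralog of Rpl7 with no shared window, was higher in macrophage-like cells (0.45, edgeR adjusted p = 1.21e-05, 6 of 6 samples).

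Between the diets the family leaned one way without passing the test. The share of UMIs was 17.3%, 15.5% and 15.2% in endothelial-like cells of high-fat diet 1, 2 and 3, against 17.1%, 21.4% and 20.6% in those of control 1, 2 and 3. Control 2 and 3 lay above all 3 high-fat diet samples, and control 1 lay among them. The same held in the other classes: 21.2%, 17.7% and 17.8% against 18.3%, 23.9% and 22.5% in fibroblast-like cells, 15.7%, 13.9% and 16.2% against 15.6%, 20.4% and 19.8% in macrophage-like cells, and 16.6%, 13.5% and 14.1% against 15.5%, 16.9% and 18.3% in smooth muscle-like cells. The diets overlapped in every class. The mean differences were -3.71 points in endothelial-like, -2.67 in fibroblast-like, -3.31 in macrophage-like and -2.15 in smooth muscle-like cells. The exact two-sided permutation test, whose smallest p with 3 against 3 is 0.1, gave 0.2, 0.2, 0.3 and 0.2 (adjusted 0.25, 0.25, 0.3 and 0.25). Over all kept cells the share averaged 17.1% ± 2.17 in high-fat diet and 22.5% ± 4.72 in control samples (SD, n = 3 each, exact p = 0.2, adjusted 0.25).

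No member passed in any class. edgeR's quasi-likelihood test called 0 of 95 tested members in endothelial-like cells, where 0.262% of all genes were called (0.0748% lower), and 0 of 99, 100 and 95 in smooth muscle-, fibroblast- and macrophage-like cells, where 0% of all genes were called in each. At an unadjusted p under 0.05 there were 43 of 95 in endothelial-like cells (14.2% of all genes), 2 in smooth muscle-like (9.32%), 4 in fibroblast-like (11.4%) and 15 in macrophage-like cells (8.91%). DESeq2 also called 0 members in each class. Among all genes it called 54 higher and 27 lower of 10693 in endothelial-like cells, and 57 and 31 of 13140 in smooth muscle-like cells. It called 133 and 111 of 13998 in fibroblast-like cells and 17 and 10 of 10677 in macrophage-like cells. The direction was nearly uniform. Of the 77 standard members, the log2 fold change of high-fat diet over control was negative for 77 in endothelial-like, 76 in smooth muscle-like, 76 in fibroblast-like and 77 in macrophage-like cells. Their medians were -0.34, -0.22, -0.26 and -0.35, where the medians of all genes were -0.00, -0.01, -0.01 and -0.00 and the shares of all genes with a negative value 50.2%, 51.7%, 51% and 50.6%. The 3 high-fat diet samples lay below all 3 controls for 18 members in endothelial-like cells (9.76% of all genes did so) and for 16 in macrophage-like cells (7.89%). In smooth muscle-like and fibroblast-like cells this held for 1 and 0 members (8.3% and 8.47% of all genes). The reverse held for 0 members in endothelial-like and 0 in smooth muscle-like cells (9.68% and 7.37% of all genes), for Rps19bp1 and Rpl13-ps3 in fibroblast-like cells (9.59%) and for Rpl6l and Rpl13-ps3 in macrophage-like cells (7.36%).

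Rps12 and Rps21 stood at the low end of the standard members in all 4 classes, which share their samples and so are not independent. Rps12, a 40S protein, ranked 1 or 2 from the bottom of the 77 in each. In macrophage-like cells it had 1596, 1408 and 1790 CPM (normalised with TMM factors) in high-fat diet 1, 2 and 3, against 1908, 3020 and 2806 CPM in control 1, 2 and 3. The diets did not overlap there (log2 fold change -0.69 ± 0.21 SE, edgeR adjusted p = 0.424). Rps21, a small 40S protein, ranked between 3 and 4 in each. Rpl39, which lines the exit tunnel, had 2022, 1649 and 1808 CPM in endothelial-like cells of the high-fat diet samples, against 2155, 3093 and 2977 CPM in those of the controls (-0.59 ± 0.16 SE, edgeR adjusted p = 0.169). Here too every control lay above every high-fat diet sample, control 1 by the least. At the other end Rpl15 ranked highest in each class, between -0.02 in macrophage-like and 0.07 in fibroblast-like cells, and Rpl14 ranked 75 or 76.

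The stalk proteins were all on the negative side. In endothelial-like cells Rplp1 had 3101, 2529 and 2701 CPM in the high-fat diet samples, against 3218, 4073 and 4247 CPM in the controls, with no overlap (-0.47 ± 0.15 SE, edgeR adjusted p = 0.227). Rplp0 was at -0.26 (edgeR adjusted p = 0.511) and Rplp2 at -0.41 (edgeR adjusted p = 0.299) in the same cells. Rpl5, Rpl11 and Rpsa were at -0.39, -0.30 and -0.28 there, with edgeR adjusted p of 0.277, 0.389 and 0.394. For all 3, control 1 lay among the high-fat diet samples, at 785 CPM for Rpl5, 1663 CPM for Rpl11 and 994 CPM for Rpsa.

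Genes outside the standard set held most of the extremes. Genes with pseudogene names and Rps27rt were among the lowest fold changes in each class, and in fibroblast-like cells so was Rpl3l (-0.90, edgeR adjusted p = 0.763, and 1.54 without control 1), which has few UMIs. In endothelial-like cells Rpl7a-ps5 was at -1.0001 (edgeR adjusted p = 0.154), Rps27rt at -0.68 (edgeR adjusted p = 0.271) and Rpl13a-ps1 at -0.64 (edgeR adjusted p = 0.397). Rpl7a-ps3 was at -1.44 in smooth muscle-like and -1.45 in fibroblast-like cells (edgeR adjusted p = 0.489 and 0.435). It had only 305 UMIs in all kept cells, and 47.9% of its 3′ windows are shared with another gene. Rps27rt had 231, 196 and 169 CPM in endothelial-like cells of the high-fat diet samples, against 204, 352 and 392 CPM in the controls. Of its 3′ windows 89.5% are shared with another gene, and of those of Rpl7a-ps5 47.5%, while Rpl13a-ps1 shares none (0%). At the high end in fibroblast-like cells stood Rpl39l (0.86, edgeR adjusted p = 0.604), which has few UMIs, Rpl13-ps3 (0.57, edgeR adjusted p = 0.347) and Rps19bp1, which binds RPS19 and is no ribosomal protein itself (0.39, edgeR adjusted p = 0.347). The paralogs were negative for 4 of 6 tested in endothelial-like cells (median -0.20), 5 of 7 in smooth muscle-like (-0.06), 3 of 8 in fibroblast-like (0.02) and 5 of 6 in macrophage-like cells (-0.23).

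Within the family the fold change ran with the length of the coding sequence. Across the 77 standard members Spearman's rho between coding length and log2 fold change was 0.75 in macrophage-like, 0.60 in endothelial-like, 0.53 in fibroblast-like and 0.47 in smooth muscle-like cells. Genes are not independent replicates and all 4 values come from the same 6 samples, so this is a description. The 40 members of at most 468 coding nucleotides, the median, gave 58.3%, 57.8% and 59.8% of the standard members' UMIs in macrophage-like cells of high-fat diet 1, 2 and 3, against 58.5%, 61.9% and 62.9% in those of control 1, 2 and 3. Control 2 and 3 were the 2 highest samples in macrophage-like, endothelial-like and fibroblast-like cells, and control 1 again lay among the high-fat diet samples. The ratio of 40S to 60S UMIs moved little, from 0.778 to 0.797 in high-fat diet and from 0.79 to 0.826 in control macrophage-like cells. Between classes the relation took both signs: rho was 0.37 in fibroblast-like and -0.39 in macrophage-like cells.

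**Figure D5:**
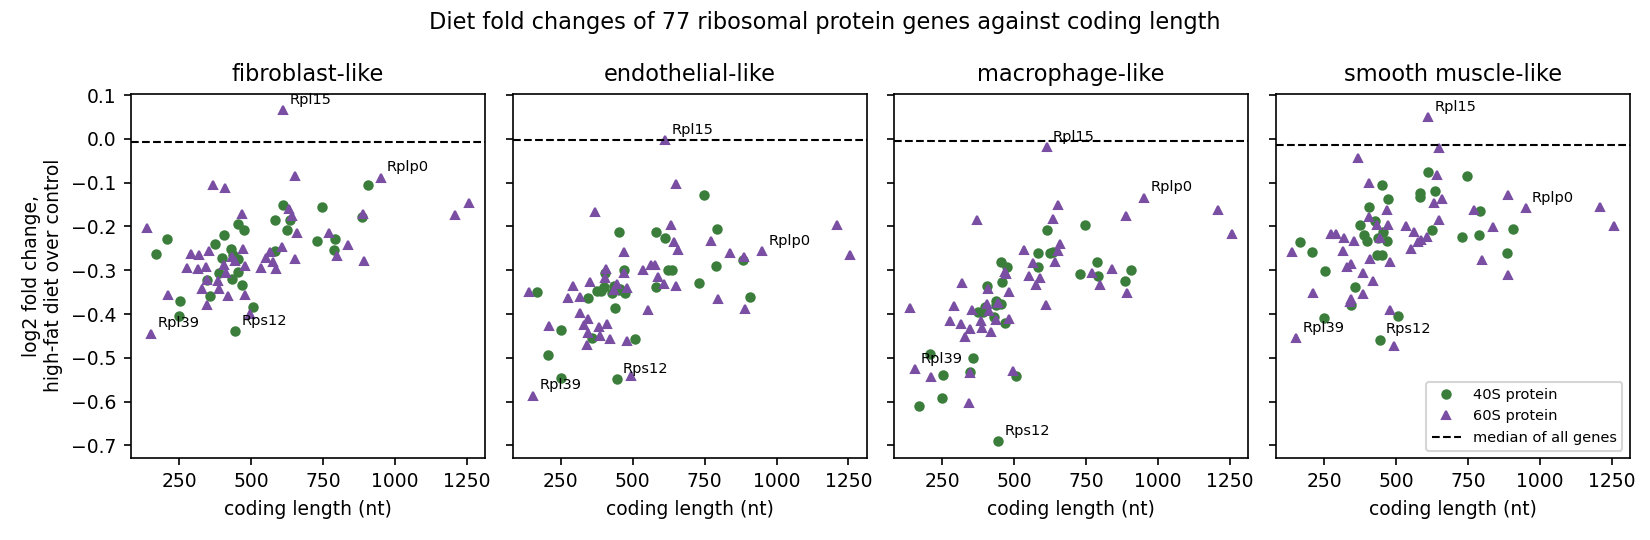
Log2 fold change of high-fat diet over control for 77 standard ribosomal protein genes, against the length of their coding sequence in nucleotides, in 4 cell classes. Each point is a gene, and the dashed line is the median of all genes tested. Nearly all points lie below the line and shorter genes lie lower, while Rpl15 lies between -0.02 and 0.07 in the 4 classes.

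The calls turned on control 1. Without it, 57 of 96 members were lower in endothelial-like cells, where 2.58% of all genes were called lower, and 51 of 97 in macrophage-like cells, where 2.74% were. In smooth muscle- and fibroblast-like cells 0 members passed, where 0 of all 13543 and 0 of all 14279 genes were called. Rpl39 was then at -0.73 in endothelial-like cells (edgeR adjusted p = 0.00551) and Rps12 at -0.87 in macrophage-like cells (edgeR adjusted p = 0.00763). This fit leaves 2 controls, both of which lie above control 1 in share. Leaving out any other sample gave 0 members called in each class.

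B cell markers, depth and wells were set beside the share. The 8 B cell markers summed, in the 4 tested classes, to 14.0 to 105 plain CPM in the high-fat diet samples, against 19.2 to 31.2 in control 1, 86.1 to 102 in control 2 and 255 to 372 in control 3. That is 0.175% to 1.44% of the level in B cell-like cells in the high-fat diet samples, and at most 0.484%, 1.28% and 4.56% in control 1, 2 and 3. All 8 markers had a UMI in each class of control 2 and 3, while up to 3 of the 8 were at 0 in a class of control 1 and up to 2 in a class of high-fat diet 2. RNA of the makeup of B cell-like cells, mixed in at these levels, would add 0.0288 to 0.883 points to a share. The gate removes cells with more B cell markers, so these levels are those left after it. RNA of T cell-like cells, also rich in the family, was not counted, so these values are no upper limit. The part of lymphocyte RNA in the diet difference was not tested. In cells with 4000 to under 8000 UMIs, the endothelial-like share was 17.06%, 15.39% and 14.997% in high-fat diet 1, 2 and 3, against 17.3%, 21.7% and 20.3% in control 1, 2 and 3. Control 2 and 3 again lay above the other 4 samples. The 2 wells of control 3 differed: its endothelial-like share was 16.2% in well 1, from 154 cells, and 21.9% in well 2, from 435 cells. In the other samples well 2 minus well 1 lay between -2.52 and 1.22 points in endothelial-like cells. The part of the wells in the diet difference was not tested.

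Other genes of translation, from lists chosen with earlier results of these data known, leaned with the family less or not at all. Of 21 other cytosolic translation genes with a terminal oligopyrimidine tract, 18 were negative in endothelial-like cells (median -0.14) and 15 in macrophage-like cells (median -0.05). One of them, Hnrnpa1, an RNA-binding protein, fell in endothelial-like cells: it had 135, 114 and 117 CPM in the high-fat diet samples, against 185, 204 and 237 CPM in the controls (-0.78 ± 0.14 SE, edgeR adjusted p = 0.0447). Of genes for ribosome assembly and rRNA production, 23 of 34 were positive in endothelial-like and 28 of 35 in fibroblast-like cells (medians 0.15 and 0.14), and none passed. Mitochondrial ribosomal proteins were negative in 57 of 76 in endothelial-like and 57 of 76 in macrophage-like cells (medians -0.12 and -0.15), with none called. All 13 genes encoded in the mitochondrial genome were positive in endothelial-like and macrophage-like cells (medians 0.40 and 0.28), with none called. Of 14 genes that mark dissociation and stress, 2 rose in endothelial-like cells, the chaperones Hspa8 (1.00, edgeR adjusted p = 0.0289) and Hsph1 (1.54, edgeR adjusted p = 0.0119). The adipocyte markers tested were negative in 5 of 5 in endothelial-like cells (median -2.54), with none called. The part of RNA quality, stress and other cell types in the family's lean was not tested.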

How the data were processed

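The aortic single cells of 6 samples were counted with Cell Ranger 3.0 on build mm10, per the submitters' processing notes, and the deposited values are whole-number UMI counts per gene and cell. The annotation is not given in the sources used here. Cells with under 300 genes or over 20% mitochondrial UMIs were left out, as were doublets (scrublet in scanpy 1.11.5). Counts were summed per sample and class of at least 20 cells. edgeR 4.0.16 (R 4.3.3, TMM factors, quasi-likelihood test, Benjamini-Hochberg adjusted p under 0.05) was fitted over all genes that passed its filter on low counts, and DESeq2 1.42.0 was an alternative. CPM are TMM-normalised and plain CPM are not. Shares of UMIs were compared between diets with exact two-sided permutation tests and between classes with exact sign flips. The fits were also tested on simulated data with known changes. There the diet fits recovered 57% to 73% of 2-fold changes, depending on the class. Changes as small as the family's median diet fold changes were not simulated. Named by rule were the paralogs, the stalk genes, Rpl5, Rpl11 and Rpsa, the 3 highest and 3 lowest members of each diet comparison and of each class comparison (there leaving out members that averaged under 20 CPM), and the called genes of other lists. Other genes given with values, such as Rps12, Rps21, Rpl39, Rpl14 and the T cell genes, were chosen after their values were seen. Some items that the rule names are not reported here. The members and lists were chosen with earlier results of these data known. Alternatives were other filters, gates, wells, a replicate block, DESeq2, each sample left out and, chosen after seeing the data, B and T cells added. Whether the replicate numbers pair the samples is not known, and the main fits treated them as unpaired.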

Additional observations from a re-analysis of the deposited data

How the results depend on the processing

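The diet difference in share kept its direction in all 85 combinations of an alternative setting with a tested class or all kept cells. These combinations come from the same samples and are not independent. The design lets no setting pass 0.05. With one sample left out the difference lay between -5.01 and -2.86 points in endothelial-like, -3.09 and -1.42 in smooth muscle-like, -4.31 and -1.48 in fibroblast-like, -4.81 and -2.43 in macrophage-like and -8.09 and -3.75 in all kept cells. Members called lower ranged from 0 to 57 in endothelial-like and from 0 to 51 in macrophage-like cells, both highest without control 1, and 2 were called in endothelial-like cells without a filter on low counts. With a replicate block no member was called in any class (0), and the share differed by -3.71 points in endothelial-like cells (exact p = 0.5). Same-numbered samples correlated between -0.17 and 0.38 in their deviations from the diet means. With 3 samples per diet these values cannot show whether the numbers pair the samples, and the labels do not say.

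The share between classes moved as follows. The mean of per-cell shares gave -0.0421 points in endothelial-like, -2.02 in smooth muscle-like, 3.68 in fibroblast-like and -1.62 in macrophage-like cells. Well 1 alone gave -0.133 in endothelial-like and 0.269 in macrophage-like cells. Well 2 alone gave -2.19 in smooth muscle-like, 3.74 in fibroblast-like and -1.85 in macrophage-like cells. With B and T cells added, an alternative chosen after seeing the data, the difference was -6.85 in endothelial-like and -3.73 in fibroblast-like cells. With one sample left out it lay between 0.0327 and 0.405 in endothelial-like, -2.74 and -2.01 in smooth muscle-like, 3.09 and 3.57 in fibroblast-like, and -1.33 and -0.70 in macrophage-like cells.

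Members called higher in endothelial-like cells numbered 1 without the filter, with under 10% mitochondrial UMIs and in well 2 alone, and 0 with a gate of 4 markers. In smooth muscle-like cells 11 were called higher without the filter and in well 2 alone and 3 in well 1 alone, and 34 were called lower in well 2 alone. In fibroblast-like cells 1 was called lower with a gate of 2 markers and in well 1 alone. In macrophage-like cells well 2 alone gave 17 higher and 25 lower, where 3471 and 3990 of all 11478 genes were called. With B and T cells added, higher and lower calls were 0 and 94 in endothelial-like, 1 and 85 in smooth muscle-like, 4 and 29 in fibroblast-like, and 4 and 78 in macrophage-like cells. With one sample left out, calls ranged from 1 to 4 higher and 40 to 56 lower in endothelial-like, 4 to 11 and 50 to 59 in smooth muscle-like, 68 to 80 and 0 to 1 in fibroblast-like, and 30 to 47 and 14 to 23 in macrophage-like cells.

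These named members changed sign. Between diets, Rpl36-ps3 in endothelial-like cells was -0.17 in well 2 and, with one sample left out, -0.0431 (without control 1) to 0.31, Rpl13-ps3 was -0.0205 in smooth muscle-like and -0.00813 in macrophage-like cells in well 1, Rpl39l in smooth muscle-like cells was -0.060 with a gate of 2 markers and, with one sample left out, -0.0147 (without high-fat diet 2) to 0.73, and Rpl3l in fibroblast-like cells ranged from -1.49 to 1.54 (without control 1). Rpl15 in macrophage-like cells, at -0.02, was 0.0126 with the replicate block, 0.0691 with under 10% mitochondrial UMIs, 0.0279 with at least 1000 genes and 0.11 in well 1, and without one sample it ranged from -0.20 to 0.17. With B and T cells added, Rps27, Rps3 and Rpl9-ps6 in endothelial-like cells were -0.54, -0.34 and -0.32, Rps2 and Rps3a1 in smooth muscle-like cells -0.20 and -0.17, and Rplp1 in macrophage-like cells -0.0141. That addition changes the classes each difference is taken against. For the others the cause was not tested.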

Other observations

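Among the classes outside the comparisons, erythroid-like cells held the smallest share of UMIs in ribosomal protein genes. It was 4.75%, 3.81% and 3.06% in high-fat diet 1, 2 and 3 (67, 56 and 263 cells), against 4.01% and 3.596% in control 2 and 3 (50 and 52 cells). Neutrophil-like cells held 7.42% in high-fat diet 3 (39 cells), the one sample with at least 20 of them. Schwann-like cells, the glia of peripheral nerves, held 11.4% and 9.87% in high-fat diet 1 and 3 (49 and 35 cells), against 12.0%, 12.0% and 11.9% in control 1, 2 and 3 (24, 75 and 51 cells). Both high-fat diet samples lay below the 3 controls, and no test was made.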
